A study of Mus musculus with 9 samples.

Results

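The miRNAs described here are those that can be made without Drosha, the nuclear enzyme that cuts most miRNA hairpins out of their primary transcripts. The members were miR-320-3p, miR-484, both arms of miR-877 and miR-1224-5p, taken by name, and 4 of these 5 names were among the 860 mature miRNAs listed in every library. miR-1224-5p was not analysed here. The tissue was fat from under the skin (subcutaneous adipose tissue) of mice aged 24 weeks, which had been on a diet rich in fat and sucrose since week 8, for 16 weeks in all. The groups were WT, Hete_KO and Homo_KO, with 3 individual mice and so 3 libraries each. WT mice were littermates, and Hete_KO and Homo_KO mice carried the knockout of AGO1 in endothelial cells, the lining of blood vessels. Neither the driver of the knockout nor the strain is given in the labels, and the RNA came from whole tissue, of which endothelial cells are one part. AGO1 itself was not measured, since the files list mature miRNAs, so the genotypes were taken as labelled.

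Most miRNAs are cut by Drosha in the nucleus and then by Dicer in the cytoplasm before a strand is loaded into an Argonaute protein such as AGO1. Mirtrons skip the first cut: they are short introns that splicing releases and that fold into a hairpin once the lariat is opened, so their ends are splice sites. miR-877 and miR-1224 belong to this class. miR-320 and miR-484 are made as short transcripts whose 5′ end is the capped start of transcription, and Dicer cuts these capped hairpins directly. The loci differ accordingly in GENCODE vM21 on GRCm38, the assembly that mm10 names. Mir320 lies on chromosome 14 from 70443510 to 70443591 on the plus strand, overlaps no other annotated gene and starts 62 bases from the start of Polr3d, which is transcribed the opposite way. Mir484 lies on chromosome 16 from 14159626 to 14159692 on the plus strand, 3582 bases before the start of Nde1, and its last 19 bases lie opposite an exon of Marf1 on the minus strand. Mir877 lies on chromosome 17 from 35960730 to 35960814 on the minus strand, in an intron of Abcf1.

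The sequences show where the ends of the hairpins lie. The hairpins from RefSeq (GRCm38.p6) are given 5′ to 3′ with the mature miRNAs in capitals. Mir1981, another mirtron, is shown because it starts and ends as Mir877 does.
Mir484 hairpin: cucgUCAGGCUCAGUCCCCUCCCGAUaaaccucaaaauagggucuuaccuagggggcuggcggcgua
Mir877 hairpin: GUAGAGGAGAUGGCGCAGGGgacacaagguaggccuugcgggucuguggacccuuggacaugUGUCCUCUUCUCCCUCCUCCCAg
Mir1981 hairpin: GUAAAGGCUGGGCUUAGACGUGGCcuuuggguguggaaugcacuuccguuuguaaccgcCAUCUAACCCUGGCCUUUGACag
The 85 bases of Mir877 were exactly an annotated intron of Abcf1 (0 bases off at both ends), and the 82 bases of Mir1981 (chromosome 1, 184822407 to 184822488, minus strand) were exactly an intron of Marc2. Both hairpins began with GU and ended with AG, the letters of a splice donor and acceptor. miR-877-5p began at the first base of the intron, and miR-877-3p ended 1 base before its last. Mir484 had no such ends, and its mature strand began after 4 bases. The RefSeq table held 644 of the 860 miRNAs and 468 hairpins with a measured mature strand. Of these hairpins, 7 coincided with an annotated intron within 3 bases at each end. All 7 were exact at both ends, so their starting GU and ending AG are the introns' own splice-site letters and not a separate finding. Over all 468, 11 hairpins (2.35%) had these letters at both ends.

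The seed, bases 2 to 8 of the mature strand, selects most targets of a miRNA, and it is in capitals in the following sequences.
miR-484: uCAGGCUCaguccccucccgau
miR-877-5p: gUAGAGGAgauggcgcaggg
miR-877-3p: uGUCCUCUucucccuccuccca
The 3 seeds differed from each other, and 0 other measured miRNAs with a RefSeq sequence shared any of them. These 3 strands were grouped for being made without Drosha, by different routes for miR-484 and miR-877, and not for a shared seed. The hairpins of miR-484 and miR-877 were 67 and 85 bases long, against a median of 82 for the 468 hairpins. Their GC contents were 58.2% and 61.2%, against a median of 50.6%.

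The deposited values are on a log2(x + 1) scale, and quantile normalized, both judged from the values themselves, so each one is in effect a position in a ranking that all libraries share. The number of reads is unknown. As a trace of depth, each library had between 63 and 152 miRNAs tied at its lowest value. Among marker miRNAs, the mean of endothelial miR-126a-3p and miR-126a-5p was 16.31 to 16.66 in the WT libraries and lower, 15.68 to 16.19, in all 6 knockout libraries. The mean of 5 leukocyte miRNAs was 11.35 to 11.58 in the WT libraries, 11.15 to 11.66 in Hete_KO and, without overlap with WT, 11.84 to 12.06 in Homo_KO. These 5 were unlike each other in Homo_KO against WT. Their log2 fold changes were 1.26 for miR-142a-5p, 0.71 for miR-150-5p, 0.23 for miR-223-3p, 0.22 for miR-142a-3p and -0.07 for miR-155-5p. Of single tested miRNAs, 32.7% were without overlap between Homo_KO and WT and 17.2% between Hete_KO and WT. The lowest level of liver miR-122-5p, 7.48, was that of WT replicate 1, and the other 8 libraries had 11.71 to 14.99. The part of these cell types in the members' values was not tested. The mean of 3 miRNAs linked to adipocytes (miR-193b-3p, miR-365-3p and miR-378a-3p), none of which marks adipocytes alone, was between 11.71 and 12.36. The mean of 4 skeletal muscle miRNAs ranged from 6.17 to 14.35 and was highest in WT replicates 1 and 2 and Hete_KO replicate 2. The mean of 7 epithelial miRNAs ranged from 5.62 to 8.97 and was highest in Hete_KO replicate 1. In such bulk samples fewer cells of a type and less RNA per cell cannot be told apart.

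The capped hairpins gave abundant miRNAs and the mirtron miR-877 gave scarce ones. miR-320-3p had a mean of 11.32 over the 9 libraries, miR-484 of 10.49, miR-877-5p of 4.60 and miR-877-3p of 3.08, all on the log2 scale. They held places 95, 117, 419 and 518 of 860 by mean. The contrast is between these loci and not between classes. The mirtron miR-1981 had higher means than miR-877, 8.27 for its 5p arm (place 193) and 5.94 for its 3p arm (place 326). The measured arms of the other exact introns lay under 3.46. miR-320-3p made up 0.0386% of the summed back-transformed values and miR-484 0.0216%. No source states whether the values were divided by length, and the RefSeq strands of miR-484 and miR-877-3p (22 bases each) and miR-877-5p (20 bases) differ little in length. The order miR-320-3p, miR-484, miR-877-5p, miR-877-3p was the same in each of the 9 libraries. Tests were limited to miRNAs with a mean of 3.46 or more, the value of log2(10 + 1), that lay above the lowest value in at least 3 libraries. This held for 489 miRNAs and for 3 of the 4 members, leaving out miR-877-3p.

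**Figure D1:**
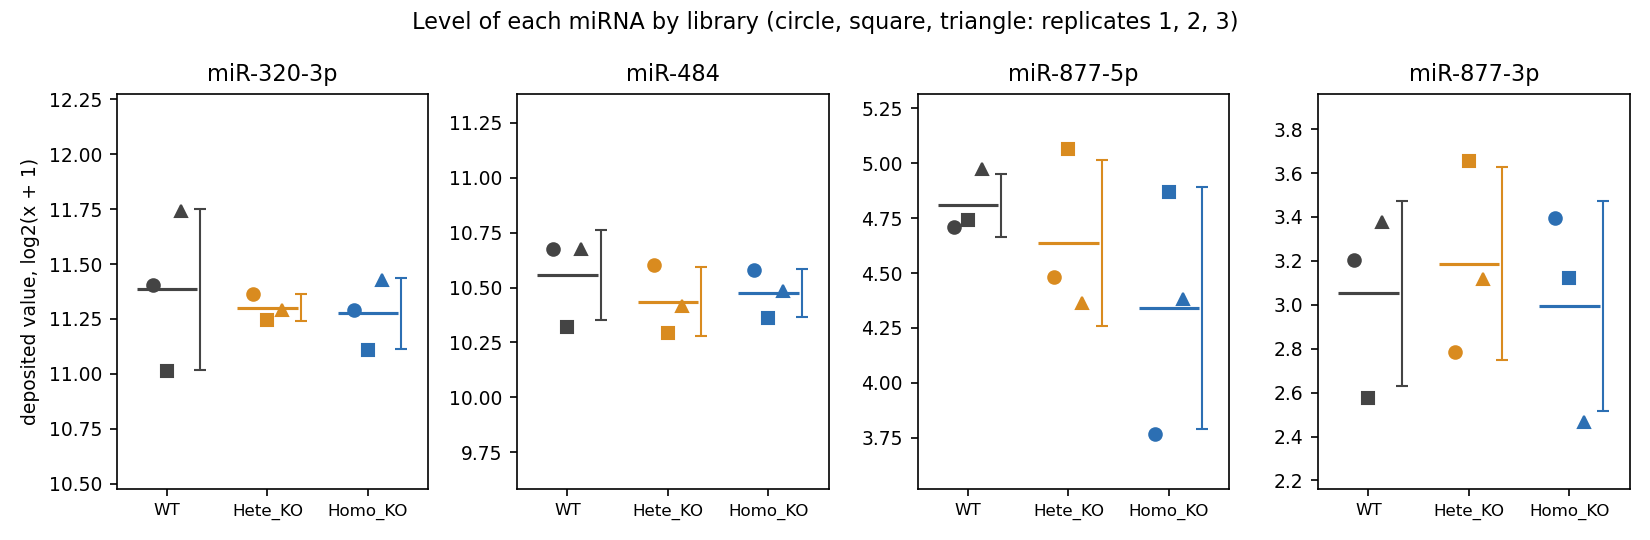
Deposited log2(x + 1) values of the 4 members in each library, by genotype, with the group mean (line) and SD over 3 mice (bar). The vertical axes cover equal spans at different levels. The groups overlap for every member, and the miR-877-5p value of Homo_KO replicate 1 (3.77) is the lowest of the 9.

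miR-320-3p, which has been studied in insulin-resistant adipocytes, differed between the 3 genotypes by less than the spread between mice. In replicates 1, 2 and 3 it was at 11.40, 11.01 and 11.74 in the WT libraries, 11.37, 11.24 and 11.29 in the Hete_KO libraries and 11.29, 11.11 and 11.43 in the Homo_KO libraries. The WT mice held both the highest and the lowest value, and all 6 knockout mice lay between them. Group means were 11.39 ± 0.37 for WT, 11.30 ± 0.06 for Hete_KO and 11.28 ± 0.16 for Homo_KO (SD, n = 3 each). The neighbours in this order did not differ beyond their spread. The log2 fold change of Homo_KO against WT was -0.11 ± 0.18 (SE, limma adjusted p = 0.731), with a 95% interval from -0.52 to 0.30. That of Hete_KO against WT was -0.08 ± 0.18 (adjusted p = 0.865). With WT replicates 1 and 2 and Hete_KO replicate 2, the muscle-rich libraries, left out, they were -0.47 (limma adjusted p = 0.284) and -0.41 (adjusted p = 0.585), with WT replicate 3, the highest of all, as the lone WT library, assumed to vary like the others.

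miR-484, which has been linked to mitochondrial fission, varied still less. It was at 10.68, 10.32 and 10.68 in the WT libraries, 10.60, 10.29 and 10.42 in the Hete_KO libraries and 10.58, 10.36 and 10.48 in the Homo_KO libraries. WT replicates 1 and 3 had the highest values and Hete_KO replicate 2 the lowest, and the groups overlapped. The means were 10.56 ± 0.20 for WT, 10.44 ± 0.16 for Hete_KO and 10.48 ± 0.11 for Homo_KO (SD, n = 3 each), in an order whose neighbours did not differ beyond their spread. The log2 fold change was -0.08 ± 0.15 in Homo_KO against WT (SE, limma adjusted p = 0.745) with a 95% interval from -0.42 to 0.25. It was -0.12 ± 0.15 in Hete_KO against WT (adjusted p = 0.768). As linear ratios of Homo_KO to WT in whole tissue, these intervals of the main fit run from 0.695 to 1.23 for miR-320-3p and from 0.748 to 1.19 for miR-484. A whole-tissue ratio of 0.5 lies outside both. Levels within endothelial cells were not measured.

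The arms of the mirtron lay near the level where values are shared by several miRNAs. miR-877-5p was at 4.71, 4.74 and 4.97 in the WT libraries, 4.48, 5.07 and 4.36 in the Hete_KO libraries and 3.77, 4.87 and 4.38 in the Homo_KO libraries. The WT mice lay close together, the knockout mice spread on both sides of them, and the groups overlapped. The means were 4.81 ± 0.14 for WT, 4.64 ± 0.38 for Hete_KO and 4.34 ± 0.55 for Homo_KO (SD, n = 3 each). Between Homo_KO and WT the difference on the log2 scale was -0.47 ± 0.33 (SE, adjusted p = 0.427 by limma), with a 95% interval from -1.21 to 0.27 that leaves a fall to less than 0.5 of the WT level within it. Hete_KO against WT had a log2 fold change of -0.17 ± 0.33 (adjusted p = 0.844). The log2 fold change of Homo_KO against WT was -0.18 without Homo_KO replicate 1, -0.73 without Homo_KO replicate 2 and -0.83 when the count tied at each library's lowest level entered the fit (limma adjusted p between 0.284 and 0.732 over all alternatives). That of Hete_KO against WT was -0.53 with this covariate and -0.55 without the muscle-rich libraries (adjusted p = 0.648 and 0.841).

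miR-877-3p, the strand from the acceptor end of the intron, was at 3.20, 2.58 and 3.38 in the WT libraries, 2.79, 3.66 and 3.12 in the Hete_KO libraries and 3.40, 3.12 and 2.47 in the Homo_KO libraries. These values overlapped widely, with means of 3.05 ± 0.42, 3.19 ± 0.44 and 2.996 ± 0.48 (SD, n = 3 each). Back-transformed, they correspond to between 4.5 and 11.6 units, and each value was held by 6 to 20 miRNAs of the same library. Exact two-sided permutation tests of single comparisons gave p = 0.8 for Homo_KO against WT, p = 0.8 for Hete_KO against WT and p = 0.7 for Homo_KO against Hete_KO, where 3 mice against 3 cannot give less than 0.1. With no filter on low values its limma adjusted p was 0.956, 0.936 and 0.967 in these comparisons.

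The 5p arm of miR-877 was higher than the 3p arm in all 9 libraries. The difference, 5p minus 3p on the log2 scale, was 1.51, 2.17 and 1.60 in the WT libraries, 1.70, 1.41 and 1.25 in the Hete_KO libraries and 0.37, 1.75 and 1.92 in the Homo_KO libraries. The smallest difference was that of Homo_KO replicate 1, where the 5p arm was lowest, and the other 2 Homo_KO mice lay within the range of WT. The mean over all libraries was 1.52 ± 0.51 (SD, n = 9), a ratio of 2.86. By genotype it was 1.76 ± 0.36 for WT, 1.45 ± 0.23 for Hete_KO and 1.34 ± 0.85 for Homo_KO (SD, n = 3 each). Exact two-sided permutation tests gave p = 0.6 for Homo_KO against WT, 0.4 for Hete_KO against WT and 1.0 for Homo_KO against Hete_KO (0.9, 0.9 and 1.0 after adjustment over these 3).

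**Figure D2:**
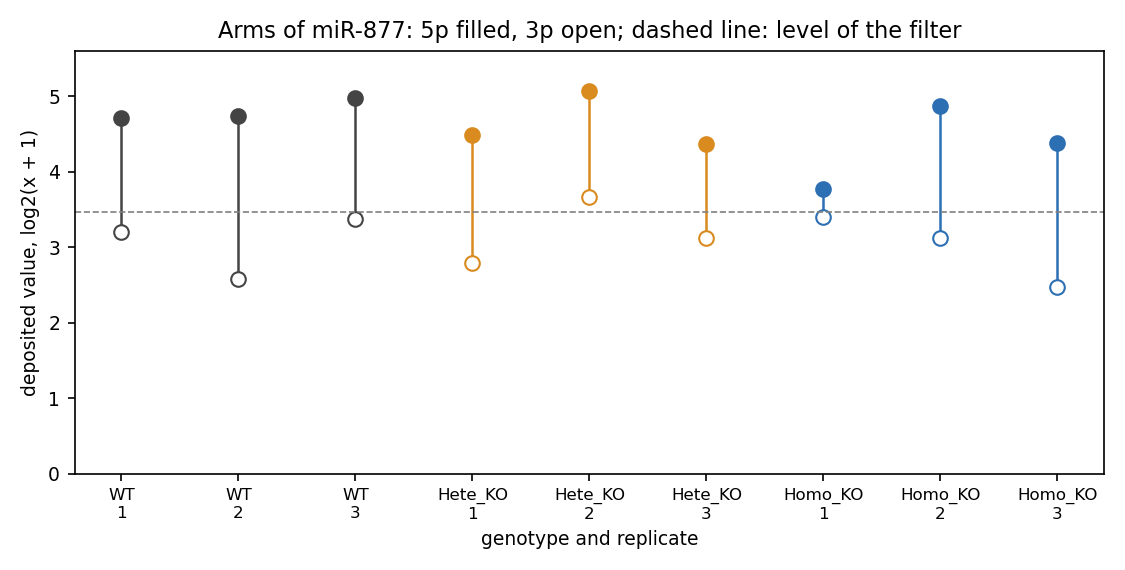
Deposited log2(x + 1) values of miR-877-5p (filled) and miR-877-3p (open) in each library, joined by a line; the dashed line is the filter's level of 3.46. The 5p arm lies above the 3p arm in all 9 libraries, by 0.37 in Homo_KO replicate 1 and by 1.25 to 2.17 in the others.

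In the comparison of Homo_KO with WT, which asks how fat miRNAs differ when endothelial AGO1 is removed, 0 of the 3 tested members passed the test, where 3.27% of all tested miRNAs did. All 3 log2 fold changes were negative, with a median of -0.11, against a median of 0.07 over all 489. The groups overlapped for each of the 3, so that 0 were without overlap, against 32.7% of all tested miRNAs. In absolute size, 17.8% of the tested miRNAs had a smaller change than miR-320-3p, 12.9% than miR-484 and 65.8% than miR-877-5p. At an unadjusted p under 0.05 the members counted 0 of 3, against 23.9% of tested miRNAs.

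For Hete_KO against WT, again 0 of 3 passed (0.409% of all tested miRNAs), with a median log2 fold change of -0.12 against -0.02 over all. This comparison and the one before share the WT mice, so their like signs are not independent. Groups without overlap were found for 0 members, against 17.2% of tested miRNAs, and an unadjusted p under 0.05 for 0 members, against 15.7%. Homo_KO against Hete_KO had 0 of 3 members called and 0.0% of all tested miRNAs (0 of 489 with limma). At an unadjusted p under 0.05 there were 0 members and 41 of all tested miRNAs (8.38%), and groups without overlap were found for 0 members and 12.3% of all. The log2 fold changes were -0.03 ± 0.18 for miR-320-3p, 0.04 ± 0.15 for miR-484 and -0.30 ± 0.33 for miR-877-5p (SE, limma adjusted p between 0.89 and 0.981). A moderated F-test across the 3 genotypes gave adjusted p = 0.904 for miR-320-3p, 0.836 for miR-484 and 0.629 for miR-877-5p, where 1.23% of tested miRNAs passed.

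**Figure D3:**
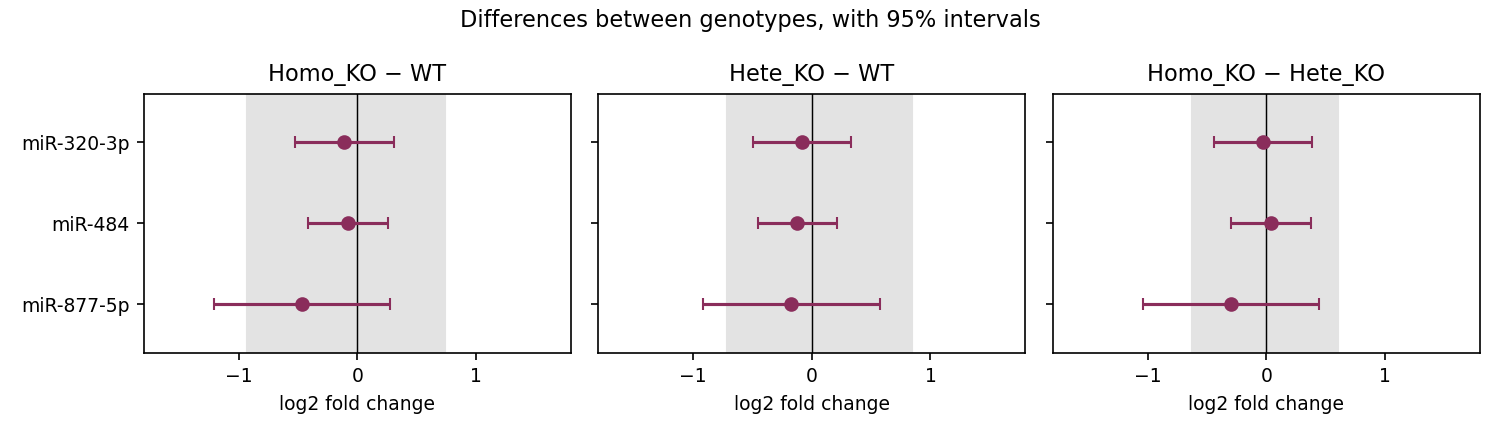
Log2 fold change of each tested member between pairs of genotypes (point) with its 95% interval from limma (bar); the grey band spans the 5th to 95th percentile of the fold changes of all 489 tested miRNAs. Every interval includes 0, and the intervals of miR-877-5p are the widest.

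The spread between mice of the same genotype was smaller for miR-484 than for most tested miRNAs. Its within-genotype SD was 0.16, and 13.7% of the tested miRNAs had a lower one. It was 0.23 for miR-320-3p (32.3% lower) and 0.39 for miR-877-5p (71.4% lower). Abundant miRNAs vary less on this scale: the median SD was 0.20 for the 130 tested miRNAs with a mean of at least 10, and 0.47 for the 104 with a mean under 5, so that miR-320-3p lay above the median of the abundant ones. Over all 9 libraries miR-484 ranged over 0.38 on the log2 scale, less than all but 3.3% of the tested miRNAs, where the median range was 1.04 over all tested miRNAs and 0.66 over the abundant ones.

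miR-320-3p and miR-484, from different chromosomes, ordered the libraries alike, in a relation that fell short of the threshold after adjustment. In each genotype replicate 2 had the lowest value of both, and in each genotype replicate 2 also had the most miRNAs at the lowest value (104 in WT, 152 in Hete_KO and 141 in Homo_KO). Across the 9 libraries Pearson's r between them was 0.77 (exact permutation p = 0.008, adjusted 0.0618 over 14 relations) and Spearman's rho was 0.82 (p = 0.009, adjusted 0.0631). It was 0.67 without the 2 WT libraries farthest from the median, and 0.77 after each genotype's mean was taken out. The permutation treated the 9 libraries as exchangeable, without regard to genotype or replicate number. The difference between them, miR-320-3p minus miR-484, stayed between 0.69 and 1.07, with means of 0.83 ± 0.21 for WT, 0.86 ± 0.09 for Hete_KO and 0.80 ± 0.13 for Homo_KO (SD, n = 3 each).

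Both tended to be lower where more miRNAs lay at the lowest value, again without passing after adjustment. The relation had r = -0.80 for miR-484 (exact permutation p = 0.0088, adjusted 0.0618; rho = -0.83, adjusted 0.0631) and r = -0.67 for miR-320-3p (p = 0.0453, adjusted 0.211; rho = -0.76, adjusted 0.0992). Without the 2 libraries farthest from the median these were -0.62 and -0.55, and with the genotype means taken out -0.84 and -0.74. With this number as a covariate the log2 fold changes of Homo_KO against WT turned positive, at 0.19 for miR-320-3p (limma adjusted p = 0.609) and 0.15 for miR-484 (adjusted p = 0.617). The direction of their small differences thus depended on this sign of depth. The number itself differed with genotype, with means of 79.0 in WT, 119.3 in Hete_KO and 119.7 in Homo_KO and overlapping ranges. Depth and genotype can therefore not be fully told apart in this fit, and the part of depth was not tested further. With the muscle miRNA mean the relations were weaker (r = -0.33 for miR-320-3p, exact permutation p = 0.396, and r = -0.15 for miR-484, p = 0.683; both adjusted 0.916).

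For miR-877-5p no relation with the other members was detected. Its r was 0.05 with miR-320-3p and -0.27 with miR-484 (exact permutation p = 0.897 and 0.494, adjusted 0.916 for both). Without the 2 WT libraries farthest from the median of the other member these were -0.33 and -0.80. With the genotype means taken out they were -0.07 and -0.47. The 3p arm of miR-877 gave an r of 0.18 with the 5p arm (exact permutation p = 0.648, adjusted 0.916), at levels where few units separate the libraries.

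**Figure D4:**
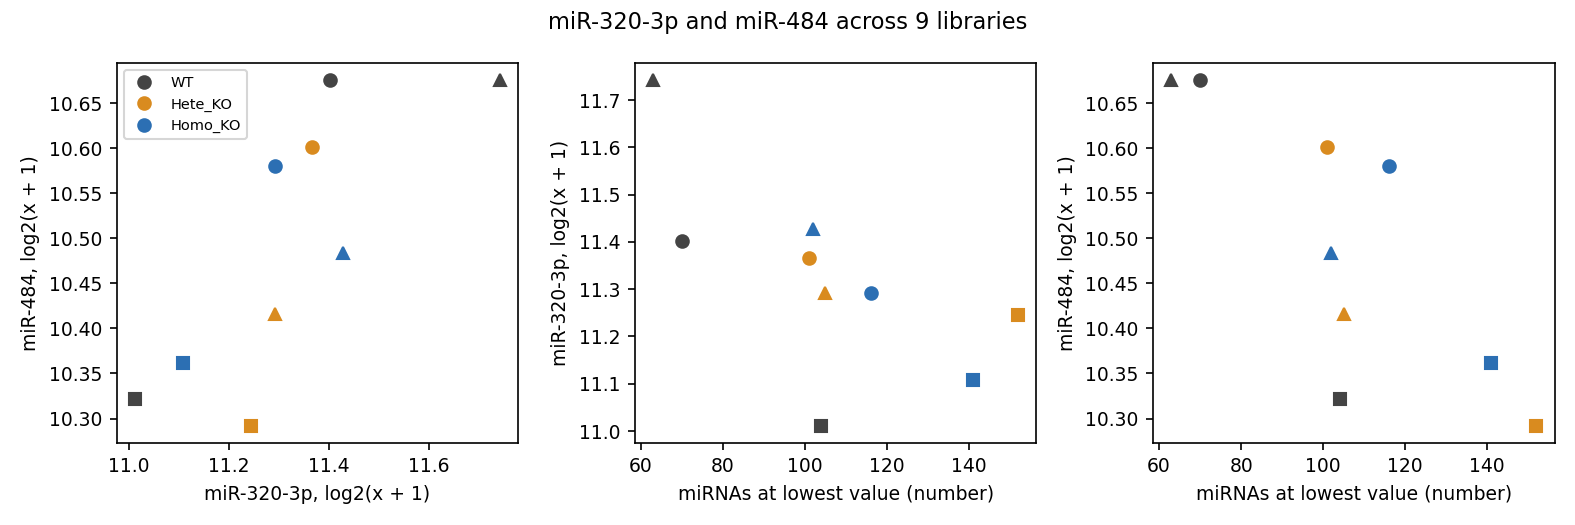
miR-484 against miR-320-3p, and each of them against the number of miRNAs at the library's lowest value, in 9 libraries (circle, square and triangle are replicates 1, 2 and 3). The squares have the lowest value of both miRNAs within each genotype, and the number on the horizontal axis runs from 63 to 152.

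The tested miRNAs whose values over the 9 libraries were most like those of each member are given as a description, with r and no test. For miR-320-3p they were miR-532-3p (r = 0.89), let-7b-5p (0.84) and miR-1306-5p (0.82), and miR-484 came at place 8. let-7b-5p had 1 shared value in the 3 Hete_KO libraries (17.99) and another in the 3 Homo_KO libraries (18.09), so it varied within WT only (Spearman's rho over the 9 libraries was 0.66). For miR-484 they were miR-224-5p (0.92), miR-532-3p (0.91) and miR-335-3p (0.88), and miR-320-3p came at place 10. Thus miR-532-3p, an X-linked miRNA with group means of 7.04 (WT), 6.78 (Hete_KO) and 6.83 (Homo_KO), was near the top for both. For miR-877-5p they were miR-1943-5p (0.81), miR-455-5p (0.80) and miR-501-5p (0.77), while miR-320-3p and miR-484 came at places 191 and 358. All of these values share the normalization and any differences in depth between libraries, which were not measured.

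A further list held 19 names of miRNAs reported as made by other non-canonical routes, from introns, small nucleolar RNAs, tRNA or ribosomal RNA. By exact name 11 were found among the measured miRNAs, and 8 were tested. Among the names not matched, 2 miR-3102 strands were deposited under other spellings and so were left out. In Homo_KO against WT 0 of the 8 passed (3.27% of all tested miRNAs) and 2 had an unadjusted p under 0.05 (23.9% of all), miR-664-3p and miR-1839-3p. The latter, named after its values were seen, was 0.53 ± 0.20 higher on the log2 scale (SE, adjusted p = 0.176 by limma). Of the 8, 5 were positive and 3 negative, where 269 of all 489 were positive, and their median log2 fold change was 0.14, against 0.07 over all tested miRNAs. In Hete_KO against WT 0 of 8 passed (0.409% of all) and 1 had an unadjusted p under 0.05 (15.7% of all). Here 6 were positive, where 231 of 489 were, and the median was 0.16, against -0.02. The most abundant of them was miR-1839-5p, made from a small nucleolar RNA, at 11.06 ± 0.18 for WT, 11.22 ± 0.16 for Hete_KO and 11.27 ± 0.09 for Homo_KO (SD, n = 3 each; adjusted p = 0.421 for Homo_KO against WT, limma). Next was miR-664-3p, reported in human as made from a small nucleolar RNA, with means of 9.36 ± 0.13, 9.64 ± 0.14 and 9.70 ± 0.14 and a log2 fold change in Homo_KO of 0.34 ± 0.14 (SE, adjusted p = 0.191).

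The mirtron miR-1981 was named after its values were seen, as the only other exact intron among the hairpins searched with an arm that passed the filter. miR-1981-5p was at 8.46, 8.03 and 8.48 in the WT libraries, 8.32, 8.26 and 8.42 in the Hete_KO libraries and 7.90, 8.23 and 8.33 in the Homo_KO libraries. The groups overlapped, and the log2 fold change was -0.17 ± 0.18 in Homo_KO against WT (SE, limma adjusted p = 0.559) and 0.01 ± 0.18 in Hete_KO (adjusted p = 0.985). miR-1981-3p was at 5.79, 5.16 and 6.05 in the WT libraries, 6.16, 6.59 and 6.35 in the Hete_KO libraries and 5.61, 5.87 and 5.88 in the Homo_KO libraries. The Hete_KO values lay above all others, with a log2 fold change against WT of 0.70 ± 0.25 that did not pass (SE, limma adjusted p = 0.203). Of all tested miRNAs, 17.2% were without overlap in Hete_KO against WT and 12.3% in Homo_KO against Hete_KO.

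**Figure D5:**
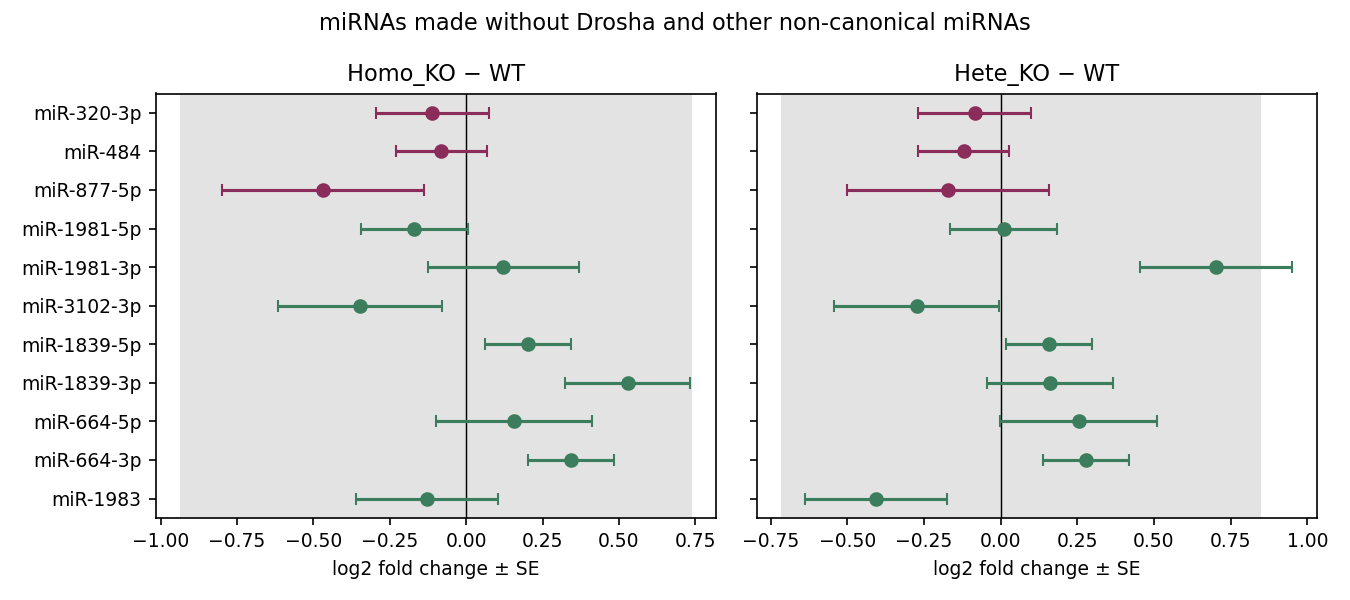
Log2 fold change ± SE of the 3 tested members (purple) and of 8 other non-canonical miRNAs (green) in Homo_KO and Hete_KO against WT; the grey band spans the 5th to 95th percentile of all 489 tested miRNAs. None of the 11 passed the test in either comparison.

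miR-451a is the reverse case: Drosha makes its hairpin, and the slicer AGO2 matures it in place of Dicer. It was at 13.84, 13.12 and 13.24 in the WT libraries, 11.79, 12.77 and 12.38 in the Hete_KO libraries and 12.63, 13.12 and 12.87 in the Homo_KO libraries. All 3 Hete_KO values lay below WT (17.2% of all tested miRNAs were without overlap in this comparison), and Homo_KO overlapped WT. The log2 fold change was -1.09 ± 0.27 in Hete_KO (SE, limma adjusted p = 0.0825) and -0.53 ± 0.27 in Homo_KO (adjusted p = 0.287), so neither passed. miR-451a is abundant in red blood cells, and the mean of 3 erythroid miRNAs, which includes it, was 11.01 to 11.55 in WT, 9.67 to 11.26 in Hete_KO and 10.75 to 11.19 in Homo_KO. The part of blood in its values was not tested.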

How the data were processed

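Small RNA libraries were made from Trizol RNA with the TruSeq small RNA kit, per the labels' protocols. The build was mm10, per the submitters' processing notes. How reads were aligned, assigned to miRNAs, counted and normalized is not given in the sources used here. Per library, the authors deposited 1 value per mature miRNA. These deposited values were treated as log2(x + 1), quantile normalized across libraries, because all 9 libraries share one maximum (19.99), and because 18 of the 21 levels below 2.3 are, to within 0.05 on the back-transformed product, means over 9 libraries of log2(whole number + 1). No read counts or intervals on them could be had.

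Groups came from the sample titles. Genotypes were compared by limma (3.58.1, under R 4.3.3; variance trend, all 9 libraries, no covariate), with Benjamini-Hochberg adjustment over the 489 tested of 860 miRNAs at a threshold of 0.05. Single measures were compared by exact permutation. The members and lists were chosen with earlier results of these data known. Named were the members, the 3 miRNAs most like each tested member, the 2 most abundant of the non-canonical list and any that passed, and miR-451a. List names were matched exactly. Sequences are RefSeq's; the table matched 3 of the 4 members. Alternatives are listed in the closing section. The limma p-values set differences between groups against the spread between these mice, moderated over all tested miRNAs. Permutation p-values come from rearranging the libraries.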

Additional observations from a re-analysis of the deposited data

How the results depend on the processing

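None of the tested members passed the limma test in any comparison under any alternative run (the stricter filter left out miR-877-5p). In Homo_KO against WT the smallest adjusted p over the alternatives was 0.284 for miR-320-3p, 0.427 for miR-484 and 0.284 for miR-877-5p. Signs turned with the depth covariate (number of miRNAs at the lowest value), to 0.19 and 0.15 on the log2 scale for miR-320-3p and miR-484 in Homo_KO against WT and to 0.21 and 0.11 in Hete_KO against WT. That of miR-484 in Homo_KO against Hete_KO turned to -0.033 without the 3 libraries richest in muscle miRNAs. The depth covariate was higher on average in both knockout genotypes, so that a fit with it cannot fully separate depth from genotype. The cause was not tested. Leaving out each library in turn, miR-320-3p ran from -0.30 to 0.068 in Homo_KO against WT, from -0.27 to 0.094 in Hete_KO against WT and from -0.10 to 0.059 in Homo_KO against Hete_KO. In the same order miR-484 ran from -0.20 to -0.02, from -0.24 to -0.05 and from -0.033 to 0.12, miR-877-5p from -0.73 to -0.18, from -0.39 to -0.03 and from -0.56 to -0.01, and miR-877-3p from -0.29 to 0.21, from -0.10 to 0.33 and from -0.39 to 0.07. The difference between the miR-877 arms ran from -0.70 to 0.074, from -0.43 to -0.10 and from -0.39 to 0.38. The count of all miRNAs called in Homo_KO against WT was 16, and 9 with no filter, 25 with the stricter filter (mean of at least 6.66), 25 with the replicate block, 3 with the muscle covariate, 8 without the 3 muscle-rich libraries, 0 with the depth covariate and 2 to 25 with each library left out. In Hete_KO against WT it was 2, and 10 with the stricter filter, 1 with only the groups compared, 15 with the replicate block, 10 without the muscle-rich libraries, 0 with the depth covariate and 1 to 24 with each library left out. In Homo_KO against Hete_KO it was 0, and 4 without the muscle-rich libraries. By the F-test it was 6, and 16 with the stricter filter, 16 with the replicate block, 11 without the muscle-rich libraries, 0 with the depth covariate and 0 to 17 with each library left out. A pseudocount of 5 and scaling by the median moved none of these counts by over 1.5 times. The replicate numbers were not used to pair mice in the main fit, since the labels name no batch. Correlations of deviations between libraries with the same number ran from -0.28 to 0.55, with a median of 0.38. For different numbers they ran from -0.70 to 0.54, with a median of -0.12. Whether libraries with one number share a source of variation was not tested, and the main limma and permutation p-values take no account of it. With the replicate block in Homo_KO against WT, limma adjusted p was 0.66 for miR-320-3p, 0.68 for miR-484 and 0.38 for miR-877-5p.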

Other observations

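Beyond miR-877 and miR-1981, 5 hairpins coincided exactly with an annotated intron, and their measured arms lay under the filter's level of 3.46. They were miR-1982-3p (intron of Oaz1), miR-3547-3p (Baiap3), miR-6944-3p (Dbn1), miR-7018-3p (Hspg2) and miR-7068-3p (Cherp), with means over the 9 libraries of 1.75, 0.42, 2.44, 0.68 and 0.78 on the log2 scale. All were named after their values were seen, and none was tested with limma. miR-1982-3p was at 1.63, 0.0 and 1.72 in the WT libraries, 1.87, 1.59 and 1.92 in the Hete_KO libraries and 2.52, 2.04 and 2.47 in the Homo_KO libraries. The Homo_KO libraries thus lay above the others, at levels of a few units. WT replicate 2 was at its lowest value, which 104 miRNAs shared. Groups were without overlap for 32.7% of tested miRNAs in Homo_KO against WT and for 12.3% in Homo_KO against Hete_KO. The exact permutation p was 0.1 in both comparisons, the smallest that 3 mice against 3 can give.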
